A study of Mus musculus with 4 samples.

Results

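Bone morphogenetic proteins (BMPs) are secreted ligands of the TGF-β superfamily that bind pairs of type I and type II serine/threonine kinase receptors on the cell surface, after which SMAD proteins carry the signal to the nucleus. Secreted antagonists bind the ligands outside the cell and keep them from their receptors. In the kidney, BMPs and their antagonists are known for their part in branching of the ureteric bud and survival of the nephron progenitors, and in the adult for their part in tubular repair and fibrosis. The 10 genes described here, of 31053 in the files, were chosen by name as 5 ligands (*Bmp2*, *Bmp3*, *Bmp4*, *Bmp6* and *Bmp7*), 3 receptors (the type I receptors *Bmpr1a* and *Bmpr1b* and the type II receptor *Bmpr2*) and 2 antagonists (*Sostdc1* and *Grem1*), and not by their values. All 10 had counts.

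RNA was counted in single nuclei of the kidneys of 4 male mice aged 12 weeks, from a slice trimmed of cortex to enrich for medulla. The 2 control mice were Cre-negative Tfap2aFlox/Flox littermates, and the 2 knockout mice were Hoxb7Cre+;Tfap2afl/fl. *Tfap2a* encodes the transcription factor AP-2α, both groups carried loxP sites around its exons 5 and 6, and Hoxb7Cre is active in the collecting duct and the epithelia of the lower urinary tract, so other cells of the knockout mice keep the gene. Each mouse gave 1 library, with between 22179410 and 44964099 unique molecular identifiers (UMIs, each marking 1 captured RNA molecule), of which 27341 nuclei were kept (5430 to 7997 per mouse).

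Of these nuclei, 25614 were placed in 12 classes named by marker genes, and every class had all its markers at least 2 times above the median class. Damaged nuclei, clusters made mostly of called doublets and unnamed clusters held the other 6.32%. *Tfap2a* UMIs do not check the genotype, since the 3′ counting also reads transcripts that lack the 2 exons. In principal cells of the collecting duct, *Tfap2a* stood at 56.8 and 98.6 counts per 1000000 UMIs of the class (CPM) in the controls, against 64.8 and 106 CPM in the knockouts. The libraries differed in quality: barcodes without a nucleus gave an estimated 4.48% to 18.1% of the UMIs of a nucleus in the same library, the median mitochondrial share ran from 0.417% to 1.66%, and 75 barcode sequences occurred in more than 1 library.

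In the mm10 genome (RefSeq annotation of GRCm38.p6), the ligand genes lie at chr2:133552159-133562896 (*Bmp2*), chr5:98854415-98884053 (*Bmp3*), chr14:46383525-46390669 (*Bmp4*), chr13:38345716-38500314 (*Bmp6*) and chr2:172868012-172940321 (*Bmp7*). The receptor genes lie at chr14:34411061-34503336 (*Bmpr1a*), chr3:141837135-142169585 (*Bmpr1b*) and chr1:59764279-59878081 (*Bmpr2*). The antagonist genes lie at chr12:36314169-36318452 (*Sostdc1*) and chr2:113748675-113758648 (*Grem1*).

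Because the mice lack an AP-2 factor, the 250 bases before each annotated start were searched on both strands for 3 spellings of the AP-2 motif, GCC and GGC with 3 or 4 bases between them (the first being GCCNNNGGC) and GCCNNNGGG. RefSeq windows were at hand for 8 starts of 6 of the genes (*Bmpr1a*, *Bmpr1b* with 3 starts, *Bmpr2*, *Bmp4*, *Bmp6* and *Grem1*). A spelling was found in 3 of the 8 windows, those of *Bmp4*, *Bmp6* and *Bmpr2*, beside 34.6% of all 32851 windows of this length. The windows of *Bmp4* (chr14:46390670-46390919, minus strand) and *Bmp6* (chr13:38345466-38345715, plus strand) are shown as the ligands with a match, and that of *Bmpr1b* (chr3:141982265-141982514, minus strand), the receptor highest in the collecting duct, as one without. All 3 *Bmpr1b* windows and that of *Bmpr1a* lie inside the gene spans given above, so the bases before those spans were not searched. Capitals mark the match.
Bmp4: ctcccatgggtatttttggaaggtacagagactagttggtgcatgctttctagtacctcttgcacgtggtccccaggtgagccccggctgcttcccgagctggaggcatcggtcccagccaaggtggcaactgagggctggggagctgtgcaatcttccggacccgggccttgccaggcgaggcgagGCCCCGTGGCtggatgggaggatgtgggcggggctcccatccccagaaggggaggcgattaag
Bmp6: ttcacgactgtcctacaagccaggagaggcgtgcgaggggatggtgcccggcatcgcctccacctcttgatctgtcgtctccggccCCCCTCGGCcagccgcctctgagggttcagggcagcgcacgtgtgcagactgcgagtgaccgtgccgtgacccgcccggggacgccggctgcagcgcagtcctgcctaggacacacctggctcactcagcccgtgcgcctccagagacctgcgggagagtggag
Bmpr1b: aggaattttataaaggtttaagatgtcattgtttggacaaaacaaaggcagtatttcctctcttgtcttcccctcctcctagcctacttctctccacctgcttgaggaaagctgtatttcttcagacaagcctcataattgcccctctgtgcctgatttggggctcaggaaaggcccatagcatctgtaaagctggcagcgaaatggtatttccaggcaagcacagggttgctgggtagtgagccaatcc
The *Bmp4* match starts 63 bases before the start and holds the spelling with 4 bases between and, overlapping it by 9 bases, GCCNNNGGG on the other strand. The *Bmp6* match starts 164 bases before the start. A match is a stretch of letters only, and binding was not measured here.

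The genes differed in where they were counted. Of the 120 combinations of a gene and a class, 79 had UMIs in all 4 mice and 12 had none in any mouse. *Bmp6* marked the proximal tubule and interstitium, *Sostdc1* the thick ascending limb, *Bmpr1b* the intercalated and principal cells, *Bmp7* podocytes, *Bmp3* the pelvic epithelium and *Bmp4* the interstitium, whereas *Bmpr1a* and *Bmpr2* were found in nearly every class.

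**Figure D1:**
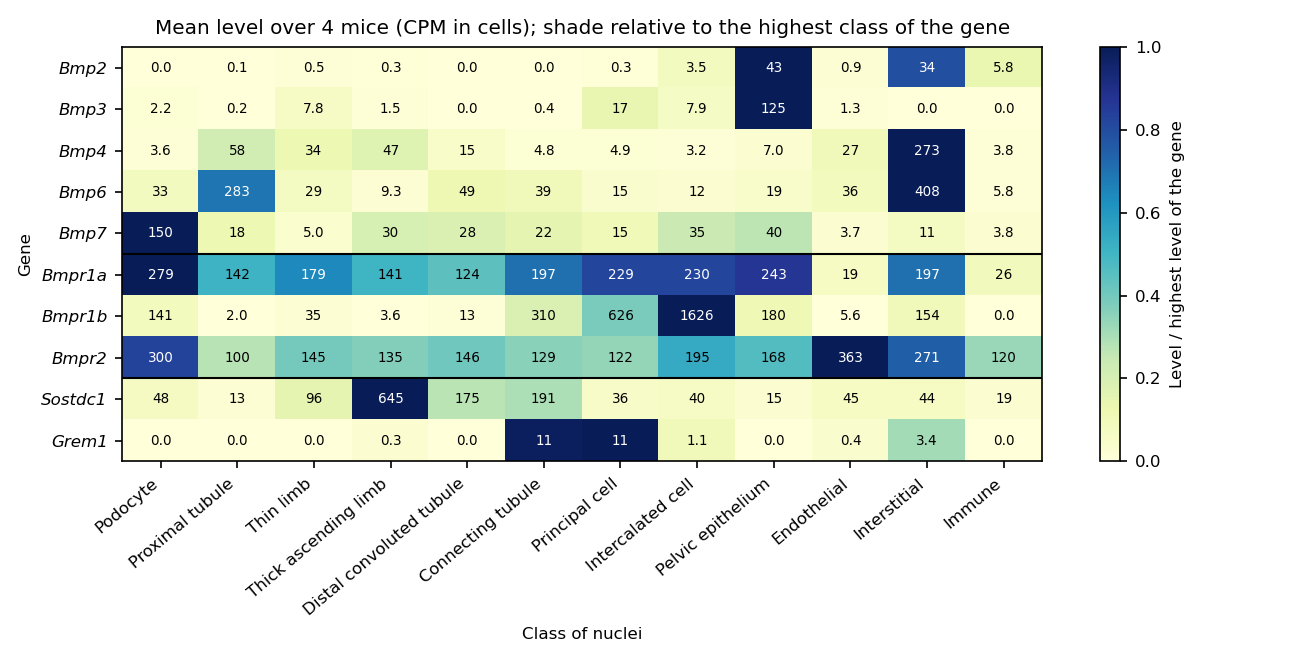
Mean level over the 4 mice of each gene (rows) in each class of nuclei (columns), in CPM as written in the cells, with the shade relative to the highest class of that gene and lines between ligands, receptors and antagonists. *Bmpr1b* reached 1626 CPM in intercalated cells, *Sostdc1* 645 CPM in the thick ascending limb and *Bmp6* 408 CPM in the interstitium and 283 CPM in the proximal tubule, and the levels of different genes are not compared with each other.

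To find whether the highest class of a gene stood above the next one, classes were ranked in the control mice and the first and second were compared in the knockout mice, which did not set the order, with edgeR's quasi-likelihood test and Benjamini-Hochberg adjustment over 18405 genes. The first class was higher for 5 of the 10 genes: *Bmp3*, *Bmp4*, *Bmp7*, *Bmpr1b* and *Sostdc1*. Over all genes, 2.82% to 8.56% were called higher in these pairs, which were chosen by the levels of the BMP genes. Ranked in the knockout mice and tested in the control mice, the count was 5 as well. Subtypes of a class were also compared over all 4 mice with the mouse as a term, a choice made after levels were seen. Of 79 tests of a BMP gene in 11 pairs, 31 passed, beside 6.16% to 43.1% of all genes in the same pairs.

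Among the ligands, *Bmp6*, which also regulates hepcidin in the liver, gave most UMIs, 94.4% of them in the proximal tubule. There its level was 296 and 246 CPM in the controls, against 250.4 and 339 CPM in the knockouts. The interstitium stood at 285 and 389.9 CPM in the controls, against 454 and 503 CPM in the knockouts, so the ranges of these classes overlapped. The difference between interstitium and proximal tubule did not pass the test (log2 difference 0.14 ± 0.26 SE, edgeR adjusted p = 0.84, with 8.53% of genes called higher in the interstitium), but without TMM scaling of the libraries the difference was 0.70 (adjusted p = 0.046), so this call rests on the scaling. Nuclei of the interstitial class held 1703 to 3715 CPM of proximal tubule markers, and the part of these in its *Bmp6* level was not tested. In the control mice the *Bmp6* level of the interstitium was 337 CPM, with 367 CPM after subtraction of free RNA, 342 CPM without called doublets and 547 CPM in nuclei under 1% mitochondrial UMIs.

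All other classes were lower in *Bmp6*, and the next was the distal convoluted tubule with 83.1 and 44.6 CPM in the controls, against 49.7 and 18.4 CPM in the knockouts. The ranges of the proximal tubule and distal convoluted tubule did not overlap, while those of every lower pair of neighbours did. In nuclei under 1% mitochondrial UMIs the distal convoluted tubule was at 16.6 CPM against 63.9 CPM in the control mice, where free RNA was estimated to give 3.77 to 15.97 CPM. The level in the connecting tubule (41.1 CPM in the control mice) rested on called doublets, since it was 2.34 CPM without them.

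Along the proximal tubule, *Bmp6* fell from the Slc5a12-high nuclei, which carry markers of the first segment, to the Cyp7b1-high nuclei, which carry markers of the last. In Slc5a12-high nuclei it stood at 394, 389, 380.2 and 474 CPM in control 1, control 2, knockout 1 and knockout 2, and in Cyp7b1-high nuclei at 114, 139.9, 117 and 172 CPM. Every mouse showed the fall, with no overlap between these nuclei (log2 difference -1.67 ± 0.09 SE, adjusted p = 6.9e-11). The Slc13a3-high nuclei lay between, with 328, 265, 218 and 334 CPM, and differed from both (log2 difference -0.50 ± 0.07 SE from Slc5a12-high nuclei, adjusted p = 4.9e-06, and Cyp7b1-high nuclei lower by a log2 of -1.18 ± 0.10 SE, adjusted p = 5.2e-08).

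*Bmp4*, a ligand of the ureteric mesenchyme in the embryo, ran the opposite way along the proximal tubule. Slc5a12-high nuclei held 24.8, 17.2, 24.9 and 29.2 CPM and Cyp7b1-high nuclei 81.8, 112, 80.5 and 107 CPM (log2 difference 1.85 ± 0.13 SE, adjusted p = 2.2e-09). Slc13a3-high nuclei again lay between, with 47.8, 54.4, 48.3 and 74.2 CPM. *Bmp7*, a ligand needed for nephron formation, was lower in Cyp7b1-high nuclei, at 5.85 to 7.59 CPM, than in Slc5a12-high nuclei, at 15.98 to 24.5 CPM (log2 difference -1.71 ± 0.19 SE, adjusted p = 7.3e-07). Calls were common over all genes in these pairs: 43.1% of all genes differed between Cyp7b1-high and Slc5a12-high nuclei, 31.4% between Cyp7b1-high and Slc13a3-high nuclei and 33.1% between Slc13a3-high and Slc5a12-high nuclei, beside 3, 3 and 2 of 7 tested BMP genes.

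Over the classes, *Bmp4* was highest in the interstitium, at 235 and 123 CPM in the controls, against 243 and 489 CPM in the knockouts. Next came the proximal tubule, at 49.1 and 67.7 CPM in the controls, against 47.0 and 68.1 CPM in the knockouts, with no overlap between these classes (log2 difference 2.08 ± 0.30 SE in the knockout mice, adjusted p = 1.9e-10, with the same 8.53% of genes called). The thick ascending limb stood at 44.2 and 50.2 CPM in the controls, against 52.5 and 42.4 CPM in the knockouts, and overlapped with the proximal tubule. Within the thick ascending limb, *Bmp4* was at 75.6 to 90.6 CPM in the Enox1-high nuclei, which carry the marker of the cortical part, and at 22.2 to 40.7 CPM in the Enox1-low nuclei (log2 difference 1.502 ± 0.15 SE, adjusted p = 1.6e-22).

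*Bmp7* stood at 157 and 171 CPM in podocytes of the controls, against 157 and 116 CPM in the knockouts. The pelvic epithelium followed with 58.4 and 33.8 CPM in the controls, against 0 and 68.1 CPM in the knockouts, below every podocyte value. Podocytes were higher in the test (log2 difference 1.82 ± 0.60 SE, adjusted p = 0.037, with 3.05% of genes called higher), a call that was lost without called doublets (log2 difference 1.57, adjusted p = 0.11). Podocytes were few, with 18 to 41 nuclei per mouse. From the pelvic epithelium down, each class overlapped with the next.

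*Bmp3*, an atypical BMP that counteracts other ligands, was found in the pelvic epithelium at 97.4 and 140 CPM in the controls, against 152 and 111 CPM in the knockouts. Principal cells were second, at 21.1 and 17.4 CPM in the controls, against 5.89 and 25.6 CPM in the knockouts, with no overlap (log2 difference 3.11 ± 0.56 SE, adjusted p = 2.2e-06, with 2.82% of genes called higher). Distal convoluted tubule, interstitium and immune cells had no *Bmp3* UMI, which allows up to 1.72, 6.06 and 18.9 CPM, respectively, for counting error only.

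*Bmp2*, a ligand of bone formation, gave 83 UMIs in all, 56.6% of them in the pelvic epithelium. Its level there was 39.0 and 58.6 CPM in the controls, against 50.8 and 24.8 CPM in the knockouts, and in the interstitium 32.9 and 54.7 CPM in the controls, against 21.1 and 27.9 CPM in the knockouts. The difference between these classes did not pass the test (log2 difference 0.69 ± 1.17 SE, adjusted p = 0.94, with 4.29% of genes called higher in the pelvic epithelium). In all other classes *Bmp2* had at most 6 UMIs, and connecting tubule, distal convoluted tubule and podocytes had 0, which allows up to 1.24, 1.72 and 9.78 CPM.

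**Figure D2:**
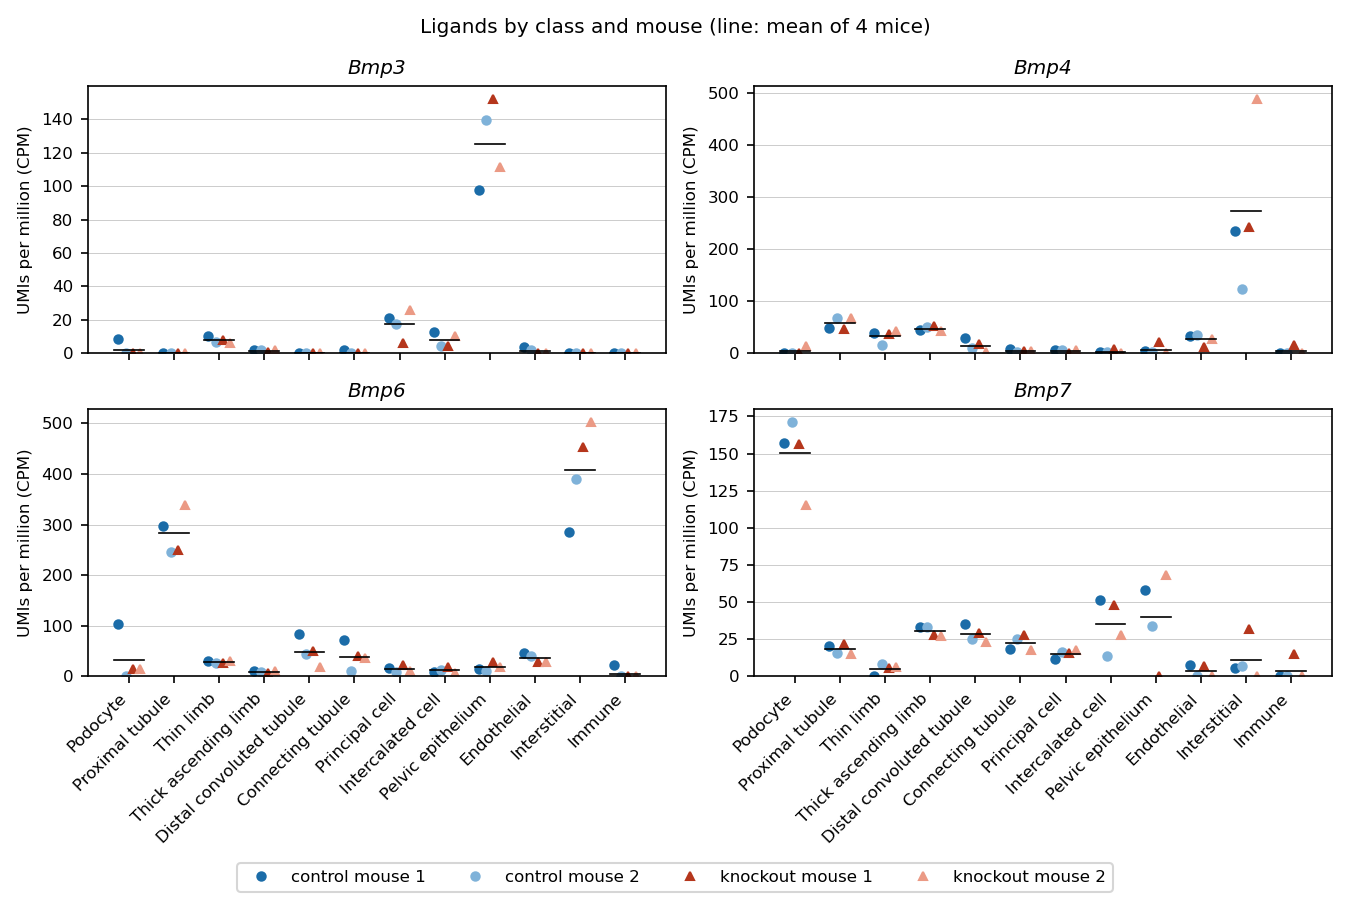
Levels of 4 ligands in CPM (vertical axis, from 0) by class of nuclei, with a point for each mouse (circles for control, triangles for knockout) and a line at the mean of the 4 mice. *Bmp3* in the pelvic epithelium (97.4 to 152 CPM) and *Bmp7* in podocytes (116 to 171 CPM) lie above every other class, while *Bmp6* in the interstitium and the proximal tubule overlaps.

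Of the receptors, the type I receptor *Bmpr1b* was the most unevenly spread. Intercalated cells, which handle acid and base, held 1497 and 1851 CPM in the controls, against 1103 and 2054 CPM in the knockouts. Principal cells, which take up water and sodium, held 431 and 638 CPM in the controls, against 573 and 860.4 CPM in the knockouts. Intercalated cells were higher, without overlap (log2 difference 1.04 ± 0.23 SE in the knockout mice, adjusted p = 9.2e-05, with 6.73% of genes called higher).

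The connecting tubule came next with 296 and 361 CPM in the controls, against 219 and 363 CPM in the knockouts, below all principal cell values. Interstitium, podocytes and pelvic epithelium followed and overlapped with each other, and the thin limb was next, at 27.4 to 54.5 CPM, below all of these but 1 interstitial value of 42.2 CPM. In the proximal tubule *Bmpr1b* was at 1.18 to 4.04 CPM and in the thick ascending limb at 2.43 to 4.95 CPM. Free RNA alone was estimated to give 2.36 to 6.62 CPM over the 4 mice, so neither range rose above the highest estimate. In control mouse 2, the values of both classes (4.04 and 4.95 CPM) lay above the estimate for its own library. No UMI was found in immune cells, which allows up to 18.9 CPM.

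Within the intercalated cells, *Bmpr1b* was at 1887, 2296, 1622 and 2884 CPM in type A cells of control 1, control 2, knockout 1 and knockout 2, and at 1215, 759, 814 and 965 CPM in type B cells. Type A cells, which secrete acid, were higher in each mouse (log2 difference 1.18 ± 0.18 SE, adjusted p = 5.1e-09). *Bmpr1a*, the other type I receptor, was also higher in type A cells, at 204 to 325 CPM against 125 to 207 CPM (log2 difference 0.75 ± 0.22 SE, adjusted p = 0.0077), with 1 type A value, 204 CPM in knockout mouse 1, within the type B range. The ligand *Bmp7* was lower in type A cells, at 5.81 to 25.6 CPM against 23.5 to 71.1 CPM in the bicarbonate-secreting type B cells (log2 difference -1.90 ± 0.46 SE, adjusted p = 0.00068). Of 7 BMP genes tested between these types, 3 were called, beside 11.1% of all genes. The calls of *Bmpr1a* and *Bmp7* were each lost when 1 mouse was left out, control mouse 2 and knockout mouse 1, respectively (log2 difference 0.64 and -1.51).

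The 2 kinds of principal cells differed in 5 of 9 BMP genes tested, beside 33.9% of all genes. They were told apart by the water channel gene *Aqp3* and by markers of the inner medullary collecting duct. The antagonist *Grem1* was at 59.1, 7.90, 52.3 and 12.3 CPM in Aqp3-high cells of control 1, control 2, knockout 1 and knockout 2, and had a single UMI in inner medullary cells. With 51 UMIs against 1, Aqp3-high cells were 94.4-fold higher (95% exact interval 16.2 to 3802, counting error only, adjusted p = 7.8e-09). Mouse 1 of each genotype exceeded mouse 2 in *Grem1*, so the spread within a genotype was larger than the difference between the genotypes.

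*Bmp3* showed the reverse, with 86 UMIs (10.4 to 38.1 CPM) in inner medullary cells and 1 in Aqp3-high cells, a ratio of 46.5 (95% exact interval 8.12 to 1856, adjusted p = 5.7e-07). *Bmp7* was at 29.6 to 40.9 CPM in Aqp3-high cells and 3.80 to 6.02 CPM in inner medullary cells (log2 difference 2.73 ± 0.39 SE, adjusted p = 7.7e-07). *Sostdc1* was at 65.9 to 109 CPM and 4.02 to 18.996 CPM in the same cells (log2 difference 2.68 ± 0.27 SE, adjusted p = 5.2e-10), and the levels in inner medullary cells were within or below the 12.8 to 20.3 CPM that free RNA was estimated to give. *Bmpr1b* showed a smaller difference, at 623 to 965 CPM against 307 to 809 CPM (log2 difference 0.55 ± 0.16 SE, adjusted p = 0.0070), control mouse 2 went the other way, and the call was lost without control mouse 1 (0.27) or knockout mouse 1 (0.53).

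*Bmpr1a* was broad, with podocytes first at 244 and 343 CPM in the controls, against 256 and 275 CPM in the knockouts. Intercalated cells were second at 249 and 244 CPM in the controls, against 159.9 and 266 CPM in the knockouts, and the difference from podocytes did not pass the test (log2 difference 0.28 ± 0.34 SE, adjusted p = 0.90, with 3.91% of genes called higher in podocytes). From podocytes down to the connecting tubule each class overlapped with the next, and the connecting tubule (181 to 229 CPM) lay above the proximal tubule (129.8 to 154 CPM). Endothelial cells were last, at 16.2 to 23.3 CPM, below all epithelial classes.

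*Bmpr2*, the type II receptor with which the type I receptors pair, was found in every mouse of all 12 classes and was highest in endothelial cells, in which it is known as the gene of familial pulmonary arterial hypertension. Its level there was 313 and 374 CPM in the controls, against 359 and 406 CPM in the knockouts. Podocytes held 296 and 286 CPM in the controls, against 214 and 405 CPM in the knockouts. Between endothelial cells and podocytes the difference did not pass the test (log2 difference 0.51 ± 0.31 SE, adjusted p = 0.48, with 5.24% of genes called higher in endothelial cells). Each class overlapped with the next, down to the proximal tubule at 89.2 to 117 CPM.

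Within the endothelial cells, *Bmpr2* was at 396, 432, 387 and 463 CPM in Plat-low cells, which held most of the class, and at 68.3, 175, 127 and 127 CPM in Plat-high cells (log2 difference -2.04 ± 0.26 SE, adjusted p = 9.0e-14). It was the only call among 7 BMP genes tested in this pair, beside 15.4% of all genes. Arterial and descending vasa recta cells, with 311 to 391 CPM, were also above Plat-high cells (log2 difference 1.41 ± 0.36 SE, adjusted p = 0.0024), a call lost without control mouse 1 (1.00).

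The ligand *Bmp6* was at 329, 242, 173 and 88.8 CPM in arterial and descending vasa recta cells, at 18.2, 46.1, 0 and 0 CPM in Plat-high cells and at 34.7, 2.62, 25.4 and 28.9 CPM in Plat-low cells. Both differences passed the test (log2 difference 3.45 ± 0.55 SE, adjusted p = 3.5e-08, and 2.98 ± 0.43 SE, adjusted p = 6.9e-10). The arterial and descending vasa recta cells numbered 11 in the mouse with fewest, 2 of 5 and 2 of 7 BMP genes were called in these pairs, and 7.63% and 7.23% of all genes were. The other call was *Sostdc1*, with 103 UMIs in Plat-low cells and 1 in arterial and descending vasa recta cells (ratio 8.71, 95% exact interval 1.53 to 347, adjusted p = 0.029), which was lost without TMM, without doublets and without 3 of the mice in turn. Leaving out called doublets lowered *Sostdc1* of the whole endothelial class from 42.007 to 25.5 CPM in the control mice, while nuclei under 1% mitochondrial UMIs alone gave 98.8 CPM.

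In the interstitium, the Acta2-high nuclei, named for the smooth muscle actin gene, held *Bmpr1b* at 236, 597, 99.1 and 287 CPM. They numbered 43, 39, 24 and 16, of which 39.5%, 7.69%, 33.3% and 18.8% were called doublets, and the calls of *Bmpr1b* and *Bmp6* in this pair held without these. Fbln5-high nuclei had 0 UMIs in every mouse, so that *Bmpr1b* was at least 26.9-fold higher in the Acta2-high nuclei, against a floor of 3 counts over the 4 mice (adjusted p = 4.7e-16). The ligands went the other way. *Bmp6* was at 165, 125, 149 and 157 CPM in Acta2-high and at 422, 648, 680.5 and 901 CPM in Fbln5-high nuclei (log2 difference -2.02 ± 0.33 SE, adjusted p = 1.1e-07). *Bmp4* was at 83.3 to 287 CPM and 162 to 721 CPM (log2 difference -1.13 ± 0.35 SE, adjusted p = 0.024), with overlap and a call that was lost when any 1 of the 4 mice, or the called doublets, was left out (-1.32 to -1.01 without a mouse). The 3 calls among 7 genes stand beside 6.16% of all genes.

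**Figure D3:**
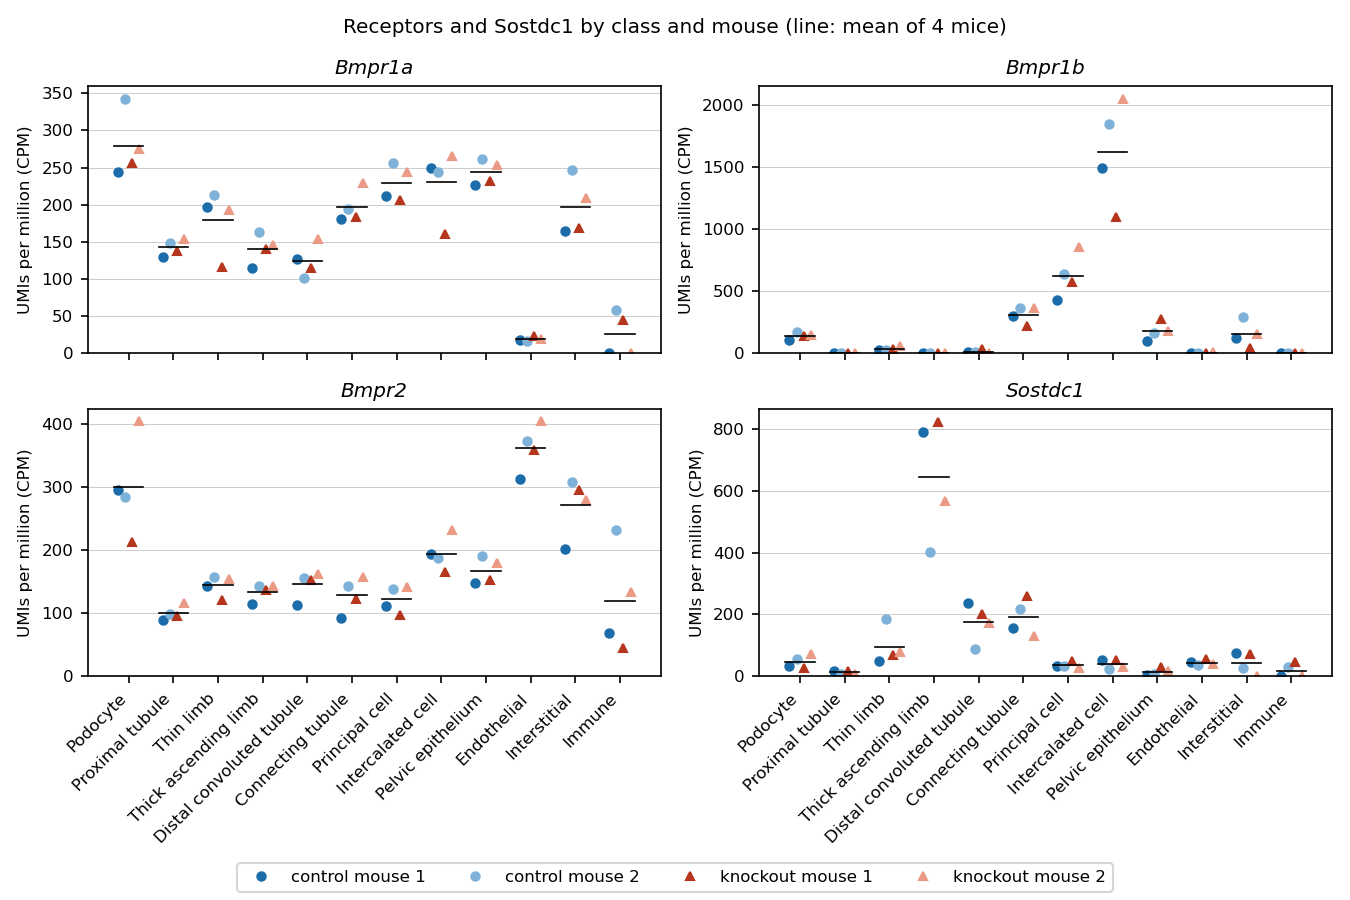
Levels of the 3 receptors and of the antagonist *Sostdc1* in CPM (vertical axis, from 0) by class of nuclei, with a point for each mouse (circles for control, triangles for knockout) and a line at the mean of the 4 mice. *Bmpr1b* (1103 to 2054 CPM in intercalated cells) and *Sostdc1* (403 to 822 CPM in the thick ascending limb) rise above all other classes, *Bmpr1a* is low in endothelial cells and *Bmpr2* is spread over all classes.

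*Sostdc1*, an antagonist of BMP and Wnt ligands also called USAG-1, was highest in the thick ascending limb, which held 76.1% of its UMIs. Its level there was 790.4 and 403 CPM in the controls, against 822 and 565 CPM in the knockouts. The connecting tubule followed at 157 and 217 CPM in the controls, against 261 and 129.8 CPM in the knockouts, with no overlap (log2 difference 1.98 ± 0.23 SE, adjusted p = 1.2e-15, with 6.66% of genes called higher). The distal convoluted tubule, at 89.2 to 238 CPM, overlapped with the connecting tubule. In the proximal tubule the level was 6.49 to 18.99 CPM, within or below the 12.8 to 20.3 CPM that free RNA was estimated to give.

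Between Enox1-high and Enox1-low nuclei of the thick ascending limb *Sostdc1* differed modestly, at 940, 481, 1047 and 702 CPM against 724, 373, 685 and 508 CPM, and was higher in the Enox1-high nuclei of each mouse (log2 difference 0.46 ± 0.08 SE, adjusted p = 1.0e-07). In the same pair *Bmp6* was at 13.4 to 29.8 CPM against 1.48 to 3.94 CPM (log2 difference 3.12 ± 0.33 SE, adjusted p = 1.4e-19). *Bmp3* had 16 UMIs in Enox1-high and 1 in Enox1-low nuclei (ratio 35.9, 95% exact interval 5.58 to 1505, adjusted p = 8.9e-05). Of 8 genes tested, 4 were called, all higher in Enox1-high nuclei, beside 13.7% of all genes.

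In the thin limb, *Sostdc1* was at 192, 612, 378 and 312 CPM in Sptssb-high nuclei and at 40.2, 34.4, 35.9 and 23.4 CPM in Bst1-high nuclei (log2 difference -3.49 ± 0.28 SE, adjusted p = 3.6e-32). The receptor *Bmpr1b* and the ligand *Bmp6* were higher in Bst1-high nuclei, with 80 UMIs against 3 (ratio 5.73, 95% exact interval 1.89 to 28.4, adjusted p = 0.0062) and 70 against 2 (ratio 7.52, 95% exact interval 2.01 to 63.3, adjusted p = 0.0072). Both of these were lost without control mouse 2 or knockout mouse 2, and *Bmp6* also without called doublets, which lowered *Bmp6* of the whole thin limb from 29.1 to 15.7 CPM. Sptssb-high nuclei numbered 15 in the mouse with fewest. The 3 calls among 8 genes stand beside 9.29% of all genes.

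*Grem1*, an antagonist of BMP2, BMP4 and BMP7, was sparse, with 88 UMIs, 59.1% of them in principal cells. The connecting tubule stood at 16.7 and 5.05 CPM in the controls, against 9.36 and 12.4 CPM in the knockouts, and principal cells at 14.6 and 3.16 CPM in the controls, against 22.6 and 4.04 CPM in the knockouts. The difference between these classes did not pass the test (log2 difference -0.21 ± 0.79 SE, adjusted p = 0.96, with 8.56% of genes called higher in the connecting tubule). The other classes had at most 3 UMIs of *Grem1* each.

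**Figure D4:**
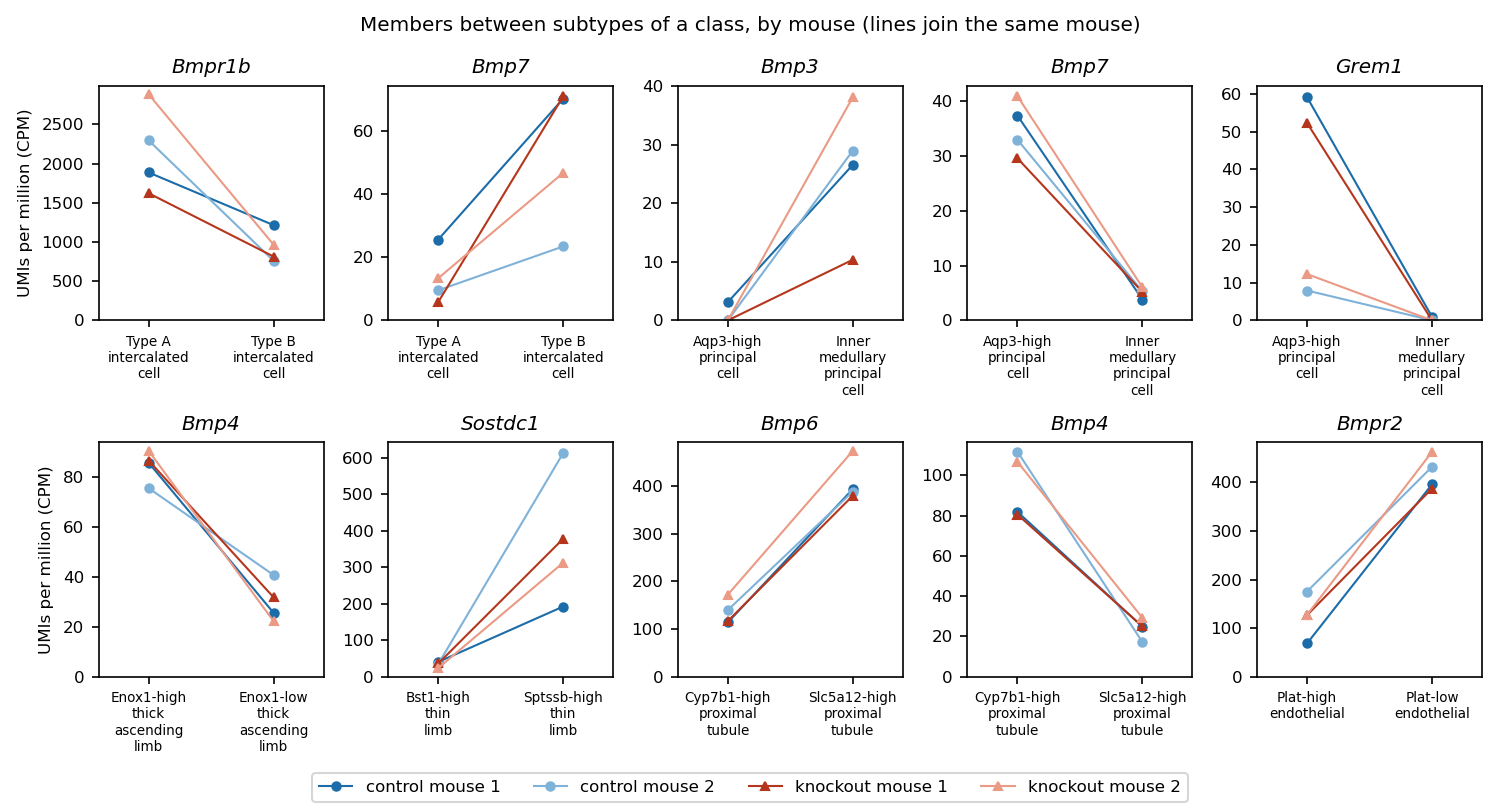
Levels in CPM (vertical axes, from 0) of 8 genes in 10 panels, each a pair of subtypes of the same class, with lines joining the values of the same mouse (circles for control, triangles for knockout). The panels were picked from pairs that passed the test, so their common direction is no separate evidence, and of all 31 calls 1 (*Bmpr1b* between the kinds of principal cells, not shown) had a mouse in the other direction. *Bmpr1b* fell from type A to type B intercalated cells, *Grem1* was nearly limited to Aqp3-high principal cells, and *Bmp4* and *Bmp6* ran in opposite directions along the proximal tubule.

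Whether deletion of *Tfap2a* changed the BMP genes was asked within each class, with 2 mice against 2. No BMP gene was called in any of the 12 classes by edgeR's quasi-likelihood test, in 84 tests of a gene in a class with at least 10 UMIs. The lowest adjusted p was 0.99, an unadjusted p was under 0.05 in 1 test beside 2.96% of the tests of all genes, and DESeq2 called 0, with 0 at an unadjusted p under 0.05. With the replicate block the count at an unadjusted p under 0.05 was 5 of 84, beside 5.44% of the tests of all genes, again with 0 called. The count also rose when a mouse was left out, in fits that keep 1 mouse in a group. In some of these fits the share of BMP gene tests exceeded that of all genes, and in others it was near it, again with 0 called. Calls were rare for all genes: 0% in the connecting tubule, distal convoluted tubule, intercalated cells, principal cells, pelvic epithelium, podocytes, interstitium and immune cells, 0.0241% in endothelial cells, 0.0135% in the thick ascending limb, 0.00814% in the thin limb and 0.00565% in the proximal tubule. The standard errors of the 84 log2 differences ran from 0.15 to 1.22, which sets the changes that could be seen. With 2 mice per group, an exact permutation test cannot give a p under 0.33.

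In principal cells, where Hoxb7Cre is active, *Bmpr1b* stood at 534 ± 146 CPM (SD, n = 2) in the control mice and 717 ± 203 CPM (SD, n = 2) in the knockout mice, with overlapping values (log2 difference 0.41 ± 0.36 SE, edgeR adjusted p = 0.999). *Bmpr1a* stood at 233 and 225 CPM on average (log2 difference -0.07 ± 0.28 SE), and *Bmpr2* at 125 and 119 CPM (-0.09 ± 0.29 SE). Among the ligands, *Bmp3* averaged 19.3 and 15.7 CPM (-0.37 ± 0.55 SE) and *Bmp4* 5.91 and 3.86 CPM (-0.73 ± 0.84 SE). *Bmp6* averaged 12.5 and 17.2 CPM (0.52 ± 0.50 SE) and *Bmp7* 13.99 and 16.6 CPM (0.21 ± 0.43 SE). The antagonists averaged 34.6 and 38.0 CPM for *Sostdc1* (0.15 ± 0.34 SE) and 8.86 and 13.3 CPM for *Grem1* (0.73 ± 0.77 SE). All these values overlapped between the genotypes.

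In their highest classes no difference between genotypes passed the test either. *Bmpr1b* in intercalated cells averaged 1674 CPM in the control mice and 1579 CPM in the knockout mice (log2 difference -0.08 ± 0.40 SE). *Sostdc1* in the thick ascending limb averaged 597 and 694 CPM (0.21 ± 0.36 SE), and *Bmpr2* in endothelial cells 344 and 383 CPM (0.18 ± 0.27 SE). *Bmp6* averaged 337 and 478 CPM in the interstitium, its first class, where both knockouts lay above both controls (0.46 ± 0.40 SE, and 0.29 to 0.77 with each mouse left out), and 271 and 295 CPM in the proximal tubule (0.10 ± 0.20 SE). *Bmp4* in the interstitium averaged 179 and 366 CPM, again with both knockouts above both controls (0.95 ± 0.47 SE, unadjusted p = 0.059, adjusted p = 0.99 by edgeR). Both knockouts lay below both controls for *Bmp4* and *Bmp6* in endothelial cells and *Bmp7* in the thick ascending limb, and above for *Sostdc1* in the pelvic epithelium. Such separations are not all listed, and their share over all genes is not given. With 2 mice against 2, each has an exact permutation p of 0.33. In the Fbln5-high interstitial nuclei alone the *Bmp4* difference was 1.11 ± 0.48 SE (unadjusted p = 0.032, adjusted p = 0.99 by edgeR), and these nuclei numbered 16 to 43 per mouse. The test with an unadjusted p under 0.05 was *Bmpr1b* in the pelvic epithelium, at 101 and 162 CPM in the controls, against 276 and 179.6 CPM in the knockouts, which do not overlap (0.80 ± 0.36 SE, unadjusted p = 0.037, adjusted p = 1.00). Pelvic epithelial nuclei numbered 66 and 94 in the controls, against 33 and 31 in the knockouts. Of the pelvic nuclei of knockout mouse 1, which had the highest *Bmpr1b* level, 27.3% were called doublets, against 3.03% to 5.32% in the other mice, and they held 2640 CPM of connecting tubule markers, against 186 to 841 CPM. Without called doublets the *Bmpr1b* difference was 0.34 (unadjusted p = 0.39, adjusted p = 1.00 by edgeR).

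**Figure D5:**
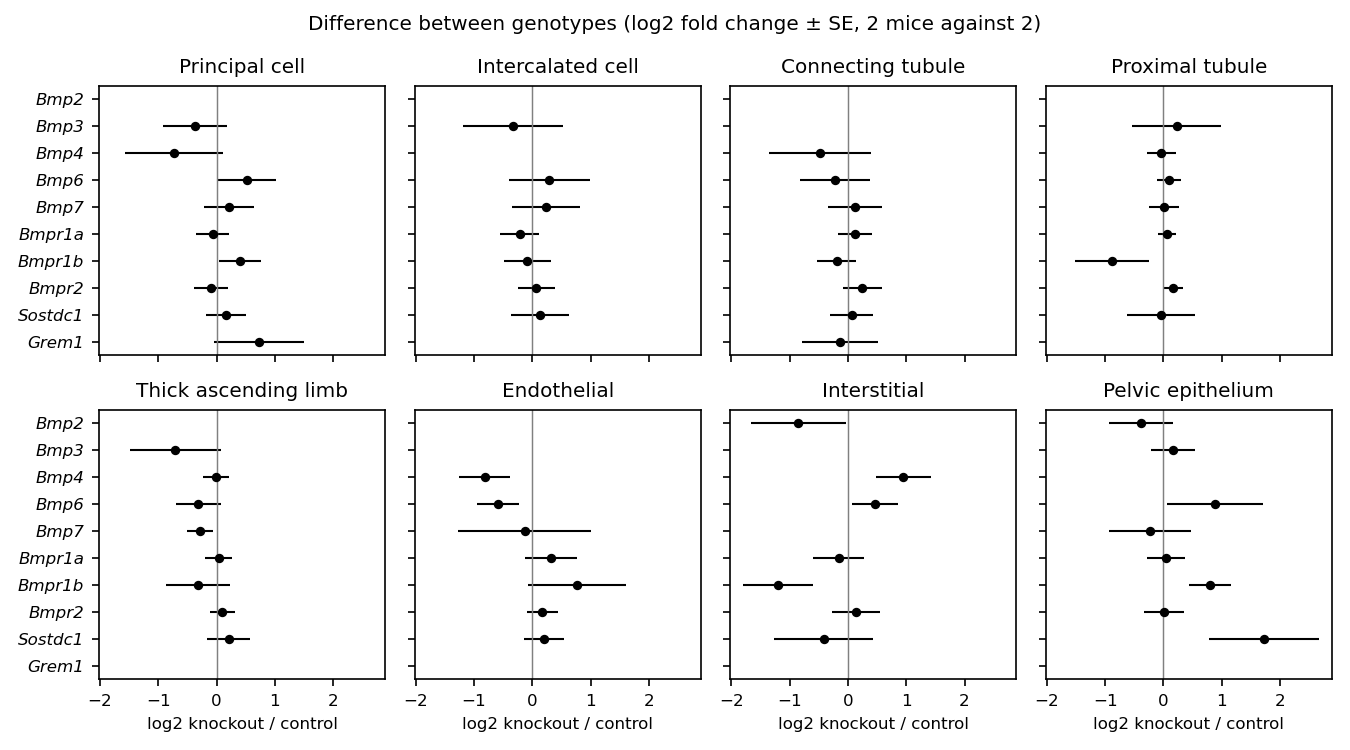
Log2 fold change between knockout and control mice (horizontal axis, points with bars of 1 SE from edgeR, 2 mice against 2) of the BMP genes with at least 10 UMIs in 8 of the classes. Points scatter on both sides of 0, and none of the differences passed the test.

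The genotype difference in principal cells was also set against that in 6 other tubular classes. Intercalated cells, 1 of these classes, also belong to the collecting duct, so that pair does not set Cre-targeted against untargeted cells. Of 54 tests, 3 (*Grem1* against thin limb and distal convoluted tubule, and *Bmp3* against distal convoluted tubule) had no UMI in the other class and could not give a call. In the other 51, 0 were called by edgeR's interaction test and 0 had an unadjusted p under 0.05. Of all 54 tests, 4 had an unadjusted p under 0.05 without called doublets and 2 with the replicate block, with 0 called in each. The count also rose in some fits without a mouse, which keep 1 mouse in a group. The share of all genes at this unadjusted threshold is not given for these tests, so the counts have no background to be read against. For *Bmpr1b*, the difference in principal cells exceeded that in intercalated cells by a log2 of 0.49 ± 0.59 SE and that in the connecting tubule by 0.57 ± 0.50 SE. Over all genes, 0% were called in each of the 6 comparisons.

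Of the rest of the pathway, 5 lists were examined (10 other ligands, 9 other receptors and co-receptors, 22 other antagonists and modulators, 9 transducers and 9 targets). None of their genes was called between genotypes in any class, in 15, 75, 100, 87 and 66 tests, respectively. In principal cells the median log2 difference was -0.25 for 2 other ligands, -0.24 for 8 other receptors, -0.14 for 11 other antagonists, 0.05 for 8 transducers and 0.05 for 6 targets, beside 0.00 for all genes tested.

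Some of the 5 genes with the highest mean level over classes in each list, picked for their sites, are described here. Others of these, such as *Neo1*, *Twsg1* and *Ski*, are not. *Eng*, a co-receptor, averaged 868 CPM in endothelial cells and 476 CPM in the interstitium. The antagonist *Fst* (follistatin) was found in the thin limb at 467 and 189 CPM in the controls, against 501 and 513 CPM in the knockouts, against a mean of 12.7 CPM in the next class. *Tll1*, a protease that cleaves the antagonist chordin, averaged 446 CPM in endothelial cells, and *Crim1*, a membrane protein that holds back BMPs, 659 CPM in podocytes. Ligands beyond the 10 were sparse, and *Bmp5* in the thick ascending limb (29.9 to 69.5 CPM) and *Bmp8a* in intercalated cells (32.3 to 86.0 CPM) led.

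The target genes *Id1* and *Id3*, which BMP receptors induce in many cells, were highest in endothelial cells at means of 525 and 816 CPM, where *Bmpr2* was highest and *Bmpr1a* lowest. The target *Smad7* (156 CPM) and the receptor *Acvrl1* (87.5 CPM) were also highest there. The target *Id2* was not, with means of 298 CPM in immune cells and 226 CPM in the proximal tubule. A link between these levels was not tested. *Smad6*, an inhibitory SMAD and target, averaged 116 CPM in the thick ascending limb and 2.16 CPM in the proximal tubule. Among the transducers *Smad1* averaged 185 CPM in endothelial cells and *Smurf2*, a ubiquitin ligase of SMADs, 298 CPM there.

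The genes whose levels over the 12 classes in the control mice were most like those of the BMP genes were sought among all genes with at least 50 UMIs, by Pearson's r on log2(CPM + 10). *Krt19*, a keratin of the pelvic epithelium, was nearest to *Bmp3* (r = 0.97, and 0.96 in the knockout mice), with *Sdcbp2* and *Rnd2* next. It was among the markers by which that class was named. For *Grem1*, *Gm15813* came first (r = 0.92, and 0.72 in the knockout mice), then *Hsd11b2* (r = 0.91, and 0.92) and *Kif26b*. *Hsd11b2*, the enzyme that shields the mineralocorticoid receptor from glucocorticoids, was among the markers by which principal cells were named. For *Sostdc1*, *Ahdc1* came first (r = 0.91, and 0.71 in the knockout mice), then *Gm47708* (r = 0.91, and 0.95) and *Gm47719*. For *Bmpr2* they were *Npr1* (r = 0.92, and 0.82 in the knockout mice), *Tm4sf1* and *Slc9a3r2*, and for *Bmpr1a* *Kdm5b* (r = 0.91, and 0.87), *Arhgap44* and *Brd3*.

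For *Bmpr1b*, *2510039O18Rik* (r = 0.86, and 0.54 in the knockout mice), *Orc4* and *A530020G20Rik* were nearest. *Bmp2* went with *Adamtsl5* (r = 0.94, and 0.88), *Lrp1* and *Prr16*, and *Bmp4* with *Gm26792* (r = 0.91, and 0.89), *AC154760.1* and *Armc4*. *Bmp6* went with *Fgf10* (r = 0.95, and 0.45), *Hist4h4* and *Nr1h3*, and *Bmp7* with *9530034E10Rik* (r = 0.94, and 0.76), *Gm4409* and *3110009E18Rik*. These 12 points are classes of the same libraries, and several of the likenesses were far weaker in the knockout mice, down to -0.15 for *AC154760.1*.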

How the data were processed

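Nuclei of 4 kidneys were sequenced after 10x 3′ library preparation. The deposited files hold raw UMI counts, which the authors made with Cell Ranger 3.0.2 and mm10, for all barcodes. Here nuclei were taken from the top 10000 barcodes of each library by UMIs, with more than 500 and fewer than 4000 genes detected and a mitochondrial share below 5%. Libraries were integrated and clustered (Seurat 5.3.0, 2000 variable genes without those of the BMP lists, resolution 0.5), and clusters were named from marker lists (a marker counted in at least 5% of nuclei). Sums of UMIs for each class in each mouse entered edgeR 4.0.16 (TMM, genes with at least 10 UMIs, quasi-likelihood test, Benjamini-Hochberg over all genes, adjusted p under 0.05). Subtypes were compared with the mouse as a term, a comparison added after levels were seen. Tests were tried on simulated counts. Called doublets were kept, except in clusters made of over 90% doublets. CPM compare classes, not genes. The genes, lists and tests were chosen with earlier results of these data known. The text names the 10 BMP genes and the 3 genes most like each BMP gene. Of the 5 pathway genes with the highest mean level in each list, it names some, picked for their sites. P-values of the genotype tests measure the spread between mice. Tests of class order and of subtypes held a term for the mouse, so their p-values measure the spread left after it. The tests of principal cells against another class had no mouse term and treated the sums of 1 mouse as independent.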

Additional observations from a re-analysis of the deposited data

How the results depend on the processing

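The count of BMP genes called between genotypes was 0 under every alternative tried: DESeq2 1.42.0, no TMM, no filter, filterByExpr, the replicate number as a block, called doublets left out, free RNA subtracted, resolution 0.8, under 1% mitochondrial UMIs (8 of 12 classes left), adjusted p under 0.1, subtypes in place of classes and each mouse left out (0 to 0). The count of BMP genes whose genotype difference in principal cells differed from that in another class was also 0 with the block, without TMM, without doublets and without each mouse (0 to 0). The block changed no call of a BMP gene, while calls over all genes rose from 7 to 287 of 132985 tests. Same-numbered mice deviated together at correlations of 0.037 to 0.33 over classes. Libraries of replicate 1 were deeper (42138345 and 44964099 UMIs in control and knockout, against 24998797 and 22179410 for replicate 2). Their free RNA was higher (14.98% and 18.1%, against 8.38% and 4.48%), as was their mitochondrial share (1.66% and 1.05%, against 0.671% and 0.417%). No label says whether the numbers mark a batch. The first class was higher for 5 genes, for 6 without TMM and for 4 without doublets. Of the 31 subtype calls, 23 held under all alternatives, with 27 to 28 calls without a mouse.

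For 20 log2 differences between genotypes, none of which passed the test, 25 of 251 alternative values had the other sign. *Bmp4* and *Bmp6* in the interstitium, *Bmp7* in podocytes, *Bmpr1b* in principal cells and pelvic epithelium and *Bmpr2* in endothelial cells kept their sign. The other log2 differences changed sign in at least 1 alternative. With mice left out they ranged in principal cells from -1.70 to 0.40 (*Bmp3*), -2.49 to 0.18 (*Bmp4*), -0.20 to 0.95 (*Bmp6*), -0.0066 to 0.51 (*Bmp7*), -0.21 to 0.097 (*Bmpr1a*), -0.39 to 0.16 (*Bmpr2*), -0.37 to 0.49 (*Sostdc1*) and -1.06 to 2.09 (*Grem1*); elsewhere from -0.93 to 0.063 (*Bmp2*, pelvic epithelium), -0.036 to 0.48 (*Bmp3*, pelvic epithelium), -0.42 to 0.10 (*Bmpr1a*, podocytes), -0.61 to 0.28 (*Bmpr1b*, intercalated cells), -0.20 to 0.80 (*Sostdc1*, thick ascending limb) and -0.64 to 1.06 (*Grem1*, connecting tubule). *Grem1* in the connecting tubule was also at 0.28 without doublets, 0.33 at resolution 0.8 and 1.22 under 1% mitochondrial UMIs, and *Bmp6* in principal cells at -0.13 under 1%. Tested in the control mice, *Bmp6* was at -0.11 between interstitium and proximal tubule. The cause was not tested. Of 60 levels of at least 20 CPM, 6 changed over 1.5 times without doublets, 2 without free RNA, 2 at resolution 0.8, 13 of 58 under 1% mitochondrial UMIs, 10 without control replicate 1 and 7 without control replicate 2.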
